A study of Mus musculus with 14 samples.

Results

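The growth factor and cytokine receptors of myoblasts described here are 10 cell surface receptors through which muscle precursor cells read their surroundings. They are the fibroblast growth factor receptors Fgfr1 and Fgfr4, the platelet-derived growth factor receptors Pdgfra and Pdgfrb, the hepatocyte growth factor receptor Met, the epidermal growth factor receptor Egfr, the leukaemia inhibitory factor receptor Lifr, the shared cytokine subunit Il6st (gp130), the oncostatin M receptor Osmr and the p75 neurotrophin receptor Ngfr. They were chosen by name, with earlier results of these data known, and all 10 were found among the 49585 genes of the table, of which 8 were abundant enough to be tested.

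C2C12 is a mouse myoblast cell line that divides in serum-rich medium and can fuse into muscle fibres. Per the labels, it was grown in DMEM with serum, and the quiescent state was modelled by suspending the cells in methylcellulose, which stops their division. The sources used here do not give how activated cells were brought back into cycle. A short hairpin RNA was used to knock down FoxM1, a forkhead factor that drives genes of cell division. The control hairpin (shControl) was present in 6 libraries, 3 quiescent and 3 activated, and the hairpin against FoxM1 (shFoxM1) in 8, of which 4 were quiescent and 4 activated, 14 in all. All groups share the cell line and carry a hairpin, and the number of hairpins or clones is not stated. Whether libraries of one group are separate cultures cannot be read from the labels, and p-values therefore reflect library-to-library spread that may be technical only.

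Fgfr1, Fgfr4, Pdgfra, Pdgfrb, Met and Egfr are receptor tyrosine kinases, which pair when ligand binds, phosphorylate each other and pass the signal through adaptors to the Ras-ERK and PI3-kinase pathways. Lifr and Osmr have no kinase of their own, and each pairs with Il6st to bring Janus kinases and the factor STAT3 into action. In muscle, fibroblast and hepatocyte growth factors are known to draw precursor cells into division and to hold back fusion, and leukaemia inhibitory factor is known as a mitogen of myoblasts.

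Values are FPKM, fragment counts scaled to transcript length and to the size of the library, which allows levels of different genes to be set side by side. Means are given ± SD, with n = 3 in the shControl and n = 4 in the shFoxM1 groups. Differences are log2 fold changes of FPKM + 1 with SE from limma, which understate the change of genes with low values, and a gene was called at a Benjamini-Hochberg adjusted p below 0.05 over 12432 genes. Fold differences without the word log2 are ratios of mean FPKM. Replicates are listed in the order of their numbers, whose meaning the sources used here do not give.

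Estimated depth was between 27800000 and 37200000 reads per library. Foxm1 itself was at 34.9 to 37.1 FPKM in activated shControl libraries and at 11.2 to 27.6 FPKM in activated shFoxM1 libraries, without overlap, but its knockdown was not called (log2 fold change -1.11, adjusted p = 0.624). In quiescent cells the Foxm1 ranges overlapped (10.0 to 23.9 against 6.61 to 15.6 FPKM). Quiescent shFoxM1 replicate 4 lay lowest on the second principal component, at -37.8. Next were quiescent shControl replicate 3 (-22.4), activated shControl replicate 3 (-20.7) and activated shFoxM1 replicate 4 (-20.5). Quiescent shFoxM1 replicate 4 also had the lowest share of mitochondrial transcripts among protein-coding FPKM, at 5.51% against 5.85 to 16.5% in the others. Values without this library are also given for Pdgfra and Osmr on activation of shFoxM1 cells, and for Pdgfra in the quiescent knockdown.

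Activation lowered 6 of the 8 receptors tested in shControl cells and raised none. Pdgfrb was 4.41-fold lower in activated than in quiescent shControl cells, Lifr 3.85-fold, Egfr 3.19-fold, Pdgfra 3.12-fold, Fgfr1 1.90-fold and Il6st 1.51-fold. Osmr and Met were not called. Of all 12432 genes tested, 16.5% were called lower in the same comparison, and the median log2 difference was -0.11 over all genes and -1.15 over the 8 receptors.

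In shFoxM1 cells 5 of the 8 receptors were lower after activation and none was higher, where 12.3% of all genes were called lower. Lifr was 3.97-fold lower in activated than in quiescent shFoxM1 cells, Pdgfrb 2.72-fold, Egfr 2.20-fold, Pdgfra 1.77-fold and Il6st 1.29-fold. The median log2 difference was -0.55 over the 8 receptors and 0.03 over all genes. In bulk RNA, fewer cells with a receptor and less of its RNA per cell cannot be told apart.

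**Figure D1:**
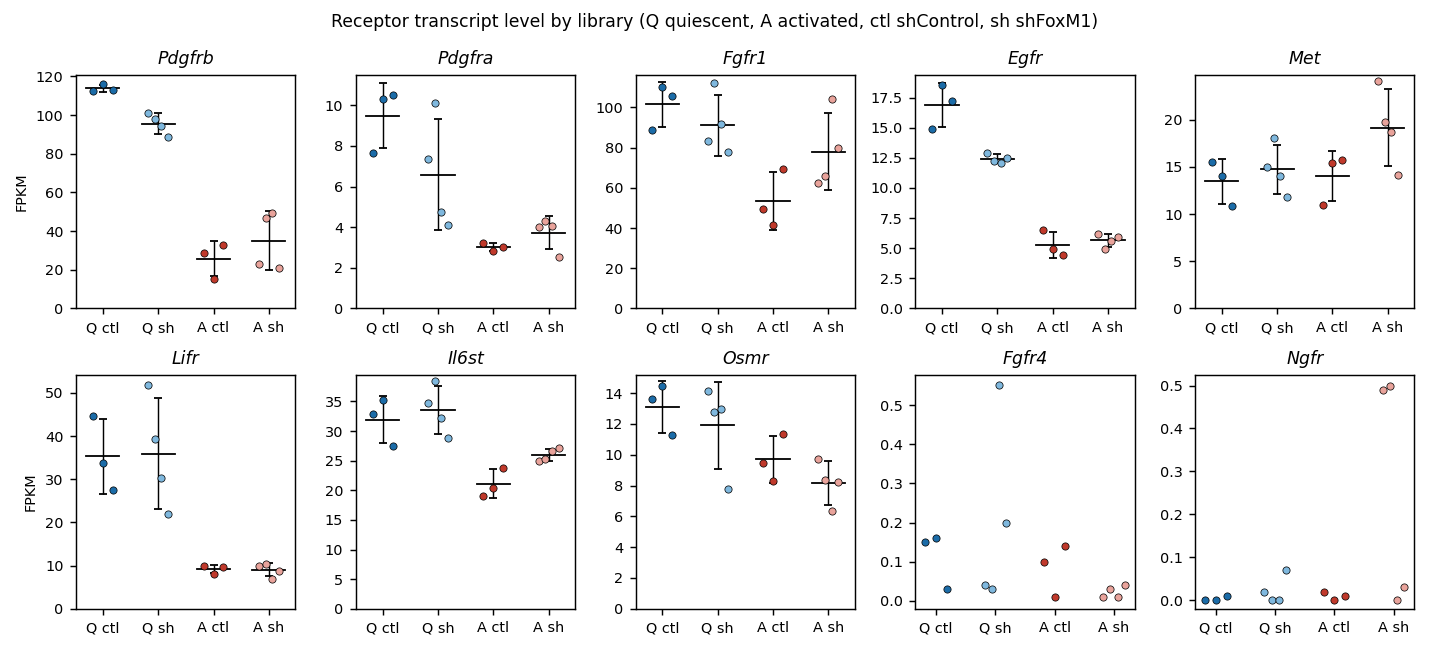
Level of each of the 10 receptors in FPKM (vertical axes, one panel per receptor) in the 14 libraries. Q and A mark quiescent and activated cells, ctl and sh the control hairpin and the hairpin against FoxM1, points are libraries, lines means and bars SD; Fgfr4 and Ngfr show points only. Pdgfrb fell from a mean of 114 to 25.8 FPKM on activation of shControl cells, while Met had means of 13.5 and 14.01 FPKM.

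**Figure D2:**
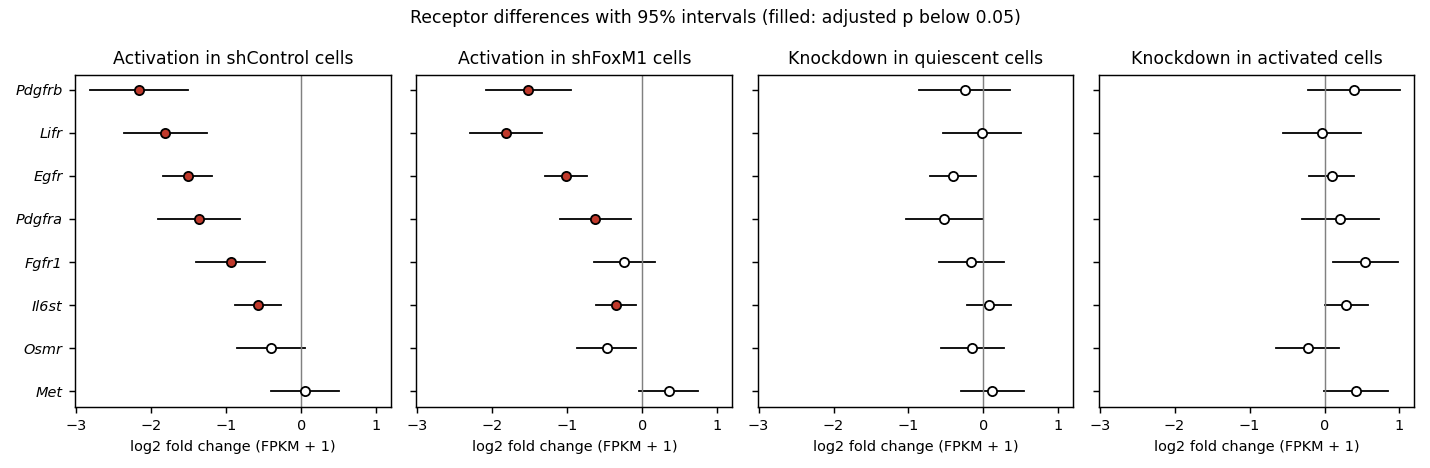
Differences of the 8 tested receptors as log2 fold changes of FPKM + 1 (horizontal axes) with 95% confidence intervals, one panel per comparison. The panels show activated minus quiescent in shControl and in shFoxM1 cells, and shFoxM1 minus shControl in quiescent and in activated cells. Filled points have a limma adjusted p below 0.05. On activation Lifr lay at -1.81 in shControl and -1.83 in shFoxM1 cells, and Fgfr1 at -0.94 and -0.24.

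Pdgfrb, on chromosome 18 (GRCm38, 61045150 to 61085061, plus strand), binds PDGF-B and PDGF-D dimers and in tissue is best known from pericytes and other mesenchymal cells. It stood at 112, 116 and 113 FPKM in the quiescent shControl libraries and at 28.9, 15.5 and 33.1 FPKM in the activated ones. Quiescent shFoxM1 libraries held 101.2, 98.1, 94.2 and 88.5 FPKM, and activated shFoxM1 libraries held 23.2, 46.8, 49.4 and 20.9 FPKM. Every quiescent library was above every activated library, and the activated libraries scattered widely. The log2 difference was -2.17 ± 0.31 in shControl cells (limma adjusted p = 0.000389; exact permutation p = 0.1, the smallest that 3 against 3 libraries allow). In shFoxM1 cells it was -1.52 ± 0.27 (adjusted p = 0.00101; exact permutation p = 0.0286, the smallest that 4 against 4 allow). All exact p-values here are two-sided.

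Pdgfra, on chromosome 5 (75152292 to 75198215, plus strand), is the receptor for PDGF-A and PDGF-C and marks fibro-adipogenic progenitors in muscle. Its values were 7.63, 10.3 and 10.5 FPKM in quiescent shControl libraries and 3.23, 2.84 and 3.04 FPKM in activated ones. In shFoxM1 cells it was at 7.35, 10.1, 4.77 and 4.09 FPKM in quiescence and at 4.02, 4.32, 4.04 and 2.53 FPKM after activation. The shControl groups were apart, whereas quiescent shFoxM1 replicate 4 lay within the activated shFoxM1 range. The log2 difference was -1.37 ± 0.26 in shControl cells (limma adjusted p = 0.00194) and -0.63 ± 0.22 in shFoxM1 cells (adjusted p = 0.0436; exact permutation p = 0.0571). This second call was lost, with an adjusted p of 0.0506 to 0.149, when quiescent shControl replicate 2 or 3, quiescent shFoxM1 replicate 1 or 2, activated shControl replicate 1 or any of the 4 activated shFoxM1 libraries was left out. That call was also lost with equal column sums (limma adjusted p = 0.175), no filter (0.101), only the groups compared (0.086) and quantile normalization (0.053). Without quiescent shFoxM1 replicate 4 the log2 difference was -0.80 (adjusted p = 0.00942).

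Pdgfrb was the more abundant of the PDGF receptors in every library, at 12.3 ± 2.16 times the FPKM of Pdgfra in quiescent shControl cells and 8.42 ± 2.75 times in activated shControl cells. In shFoxM1 cells the ratio was 16.2 ± 5.48 in quiescence and 9.27 ± 2.85 after activation. The quiescent and activated ranges of this ratio overlapped in shFoxM1 cells and, at 10.8 to 14.7 against 5.44 to 10.9, in shControl cells.

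Fgfr1, on chromosome 8 (25513654 to 25575718, plus strand), is the fibroblast growth factor receptor of dividing myoblasts. It was at 88.8, 109.9 and 105.7 FPKM in quiescent shControl libraries and at 49.3, 41.3 and 69.4 FPKM in activated ones. In shFoxM1 cells the quiescent libraries were at 83.3, 112, 91.6 and 77.6 FPKM and the activated libraries at 62.4, 65.7, 104 and 79.7 FPKM. The shControl groups were apart and the shFoxM1 groups overlapped, with activated shFoxM1 replicate 3 above 3 of the 4 quiescent libraries. The log2 difference was -0.94 ± 0.22 in shControl cells (limma adjusted p = 0.00626) and -0.24 ± 0.19 in shFoxM1 cells (adjusted p = 0.366), where the 95% interval ran from -0.64 to 0.17. Fgfr1 held the highest mean of all 10 receptors in both activated groups and the second highest, after Pdgfrb, in both quiescent groups.

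Fgfr4, on chromosome 13 (55152640 to 55168759, plus strand), is a fibroblast growth factor receptor associated with differentiating muscle precursors. Its values were 0.15, 0.16 and 0.03 FPKM in quiescent shControl libraries and 0.04, 0.03, 0.55 and 0.20 FPKM in quiescent shFoxM1 libraries. Activated shControl libraries held 0.10, 0.01 and 0.14 FPKM, and activated shFoxM1 libraries 0.01, 0.03, 0.01 and 0.04 FPKM. No library reached the 1 FPKM that the filter asked for in at least 3 libraries, so it was not tested. C2C12 cells thus held Fgfr1 as the abundant member of this receptor family, since Fgfr2 had group means of 0.91 to 1.38 FPKM and Fgfr3 of 0.172 to 0.71 FPKM.

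Egfr, on chromosome 11 (16752203 to 16918158, plus strand), binds the epidermal growth factor family, including amphiregulin, betacellulin and HB-EGF. It stood at 14.9, 18.5 and 17.2 FPKM in quiescent shControl libraries and at 12.9, 12.3, 12.1 and 12.5 FPKM in quiescent shFoxM1 libraries. Activated shControl libraries held 6.47, 4.94 and 4.43 FPKM, and activated shFoxM1 libraries 6.14, 4.94, 5.60 and 5.95 FPKM. The quiescent groups were apart from each other and from both activated groups, and the activated groups overlapped. Its log2 difference on activation was -1.52 ± 0.15 in shControl cells (limma adjusted p = 3.46e-05) and -1.02 ± 0.13 in shFoxM1 cells (adjusted p = 0.000151; exact permutation p = 0.0286).

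Met, on chromosome 6 (17463800 to 17573980, plus strand), is the receptor for hepatocyte growth factor, the classical activator of muscle satellite cells. It was at 15.6, 13.99 and 10.9 FPKM in quiescent shControl libraries and at 10.96, 15.4 and 15.7 FPKM in activated ones. In shFoxM1 cells it was at 15.03, 18.03, 14.04 and 11.8 FPKM in quiescence and at 24.1, 19.7, 18.7 and 14.1 FPKM after activation. The groups overlapped in both comparisons. Its log2 difference was 0.05 ± 0.21 in shControl cells (95% interval -0.40 to 0.50, limma adjusted p = 0.876) and 0.35 ± 0.18 in shFoxM1 cells (adjusted p = 0.164). The sign in shControl cells flipped with equal column sums (-0.24) and with scaling to the protein-coding sum (-0.23). It also flipped without quiescent shControl replicate 3 (-0.0862) or without activated shControl replicate 2 (-0.0194) or 3 (-0.0347). With weights on the libraries, whose estimate did not converge, Met was called lower (-0.28), as part of 9544 genes called there. In shFoxM1 cells Met was called higher once a trend on GC content and length was removed (0.46, adjusted p = 0.00942).

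Lifr, on chromosome 15 (7090614 to 7197489, plus strand), is the subunit that makes the response to leukaemia inhibitory factor specific. Its quiescent values were 44.7, 33.8 and 27.6 FPKM in shControl libraries and 52.0, 39.4, 30.3 and 22.1 FPKM in shFoxM1 libraries. Its activated values were 9.92, 8.06 and 9.58 FPKM in shControl libraries and 10.0, 10.5, 6.96 and 8.75 FPKM in shFoxM1 libraries. The quiescent libraries were wide apart among themselves, yet the lowest of them was above the highest activated library. The log2 difference was -1.81 ± 0.26 in shControl cells (limma adjusted p = 0.000415) and -1.83 ± 0.23 in shFoxM1 cells (adjusted p = 0.000101; exact permutation p = 0.0286). Lifr had the third highest mean of the receptors in both quiescent groups and ranked 6th in activated shControl and 5th in activated shFoxM1 cells.

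Il6st, on chromosome 13 (112464070 to 112510086, plus strand), encodes gp130, the signalling subunit that Lifr, Osmr and the interleukin 6 and 11 receptors share. Quiescent libraries held 33.0, 35.3 and 27.6 FPKM with shControl and 34.8, 38.5, 32.3 and 28.9 FPKM with shFoxM1. Activated libraries held 19.1, 20.4 and 23.8 FPKM with shControl and 24.9, 25.3, 26.6 and 27.1 FPKM with shFoxM1. Quiescent and activated libraries of the same hairpin did not overlap. The log2 difference was -0.57 ± 0.15 in shControl cells (limma adjusted p = 0.0102) and -0.35 ± 0.13 in shFoxM1 cells (adjusted p = 0.0453; exact permutation p = 0.0286). The shControl call was lost without quiescent shControl replicate 2 (adjusted p = 0.0569). The shFoxM1 call was lost, with an adjusted p of 0.0514 to 0.141, when quiescent shControl replicate 1 or 2, quiescent shFoxM1 replicate 1, 2 or 3, activated shControl replicate 1 or any of the 4 activated shFoxM1 libraries was left out. That call was also lost with equal column sums (limma adjusted p = 0.456), without the variance trend (0.0536) and with only the groups compared (0.0575).

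Osmr, on chromosome 15 (6813577 to 6874969, minus strand), is the subunit for oncostatin M and a neighbour of Lifr, 215644 bases away. It was at 13.6, 14.5 and 11.3 FPKM in quiescent shControl libraries and at 9.49, 8.27 and 11.3 FPKM in activated ones. In shFoxM1 cells the values were 14.1, 12.8, 13.0 and 7.76 FPKM in quiescence and 9.74, 8.35, 6.33 and 8.24 FPKM after activation. The groups overlapped in both comparisons, in shFoxM1 cells through quiescent replicate 4. The log2 difference was -0.40 ± 0.21 in shControl cells (limma adjusted p = 0.164) and -0.48 ± 0.18 in shFoxM1 cells (adjusted p = 0.0606). Without quiescent shFoxM1 replicate 4 the second value was -0.65 (adjusted p = 0.00475) and the number of receptors called rose from 5 to 6. Osmr was called lower in shFoxM1 cells in 8 of 30 alternatives, among them median-of-ratios scaling (adjusted p = 0.0265), scaling to the protein-coding sum (0.0202), quantile normalization (0.0238) and removal of the GC and length trend (0.0267).

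Ngfr, on chromosome 11 (95568818 to 95587735, minus strand), binds all neurotrophins and their precursors. It was at 0.49 and 0.50 FPKM in activated shFoxM1 replicates 1 and 2, equal to an estimated 48.9 and 54.3 reads, and at 0 and 0.03 FPKM in replicates 3 and 4. The other 10 libraries were between 0 and 0.07 FPKM, with at most an estimated 8.3 reads. The 2 higher libraries were thus of 1 group, whose other libraries lay within the range of the rest, and Ngfr was below the filter and not tested.

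Groups that do not overlap were counted as well. On activation 6 receptors were lower in every activated than in every quiescent shControl library, where 26.6% of all genes were. In shFoxM1 cells these were 4 (Pdgfrb, Egfr, Lifr and Il6st), where 10.5% of all genes were.

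The balance between receptor subunits, described by ratios chosen after the values were seen, differed between the states for some pairs. The FPKM of Il6st was 0.927 ± 0.166 times that of Lifr in quiescent shControl cells and 1.01 ± 0.264 times in quiescent shFoxM1 cells. After activation it was 2.31 ± 0.339 times and 2.96 ± 0.653 times, and no quiescent library (highest 1.31) reached the lowest activated one (1.92). Lifr over Osmr moved the other way, from 2.69 ± 0.518 to 0.955 ± 0.102 in shControl cells and from 2.99 ± 0.562 to 1.11 ± 0.1001 in shFoxM1 cells. Il6st over Osmr was 2.44 ± 0.0131 in quiescent shControl cells and 2.19 ± 0.244 in activated ones, with overlapping ranges. In shFoxM1 cells it was 2.92 ± 0.593 in quiescence and 3.27 ± 0.692 after activation, also with overlapping ranges. Among the receptor tyrosine kinases, Met over Egfr was 0.811 ± 0.212 and 1.19 ± 0.218 in quiescent shControl and shFoxM1 cells and 2.78 ± 0.968 and 3.41 ± 0.750 after activation.

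**Figure D3:**
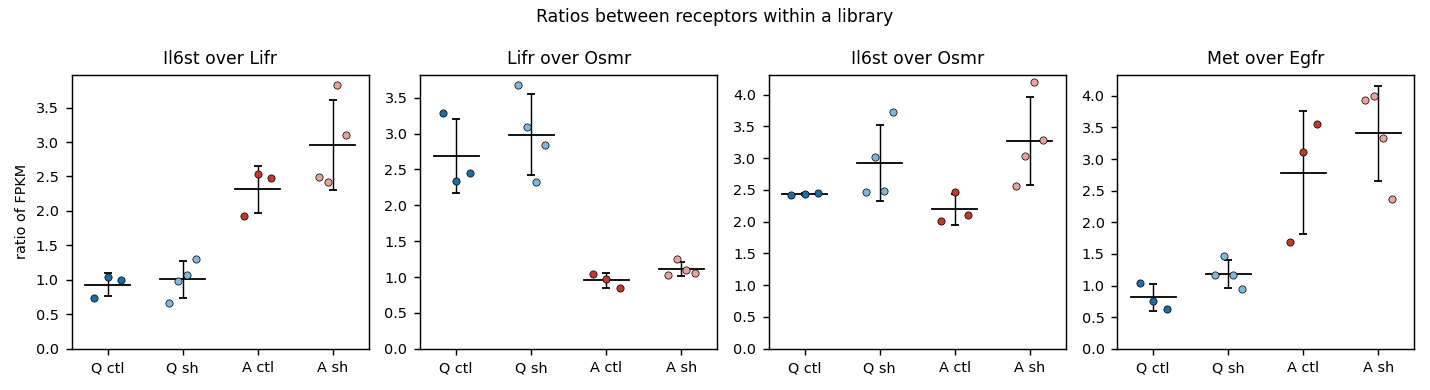
Ratios of FPKM between pairs of receptors (vertical axes, one panel per pair) in the 14 libraries, by group; points are libraries, lines means and bars SD. Il6st over Lifr lay between 0.669 and 1.31 in quiescent libraries and between 1.92 and 3.82 in activated ones, and Lifr over Osmr fell from means of 2.69 and 2.99 to 0.955 and 1.11.

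The upstream sequences of Pdgfra, Egfr and Lifr are shown because these were the receptors with the largest falls for which RefSeq start sites were at hand, 8 of the 10 receptors having an entry and Fgfr1 and Pdgfrb none. Each is the 250 bases before a RefSeq start on GRCm38.p6, written from 5′ to 3′ on the strand of the gene. Capitals mark matches to motifs searched on both strands.
Pdgfra, chr5:75152001-75152250, plus strand: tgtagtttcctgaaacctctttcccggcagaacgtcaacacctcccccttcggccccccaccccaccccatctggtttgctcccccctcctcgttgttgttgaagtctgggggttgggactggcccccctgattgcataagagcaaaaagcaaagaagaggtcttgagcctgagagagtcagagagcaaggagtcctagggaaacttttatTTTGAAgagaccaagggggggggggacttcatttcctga
Egfr, chr11:16751953-16752202, plus strand: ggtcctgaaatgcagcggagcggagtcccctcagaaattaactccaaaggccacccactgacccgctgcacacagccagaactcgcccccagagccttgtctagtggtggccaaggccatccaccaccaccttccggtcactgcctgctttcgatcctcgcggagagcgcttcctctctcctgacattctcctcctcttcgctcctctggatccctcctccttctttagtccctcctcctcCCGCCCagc
Lifr, first start, chr15:7129322-7129571, plus strand: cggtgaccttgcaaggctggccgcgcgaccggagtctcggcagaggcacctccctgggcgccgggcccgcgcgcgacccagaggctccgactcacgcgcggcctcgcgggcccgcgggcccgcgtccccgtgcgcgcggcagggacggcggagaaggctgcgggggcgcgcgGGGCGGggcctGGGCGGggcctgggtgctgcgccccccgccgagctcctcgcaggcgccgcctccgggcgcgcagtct
Lifr, second start, chr15:7140292-7140541, plus strand: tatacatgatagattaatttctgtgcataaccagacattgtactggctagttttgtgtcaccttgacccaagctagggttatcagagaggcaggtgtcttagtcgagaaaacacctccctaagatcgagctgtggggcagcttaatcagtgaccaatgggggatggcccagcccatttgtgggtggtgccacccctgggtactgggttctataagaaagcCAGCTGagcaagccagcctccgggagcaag
The motifs were TTTGAA of the cell cycle genes homology region, the forkhead motif TGTTTAC, the STAT motif TTCNNNGAA, the AP-1 motif TGANTCA, the myogenic E-box CAGCTG and the GC box GGGCGG, and no match overlapped another in these 4 windows. Pdgfra held TTTGAA at positions -39 to -34 before the start, a motif that 16% of 32851 such windows held. Egfr held a GC box, which 32.7% of windows held, read on the other strand at positions -9 to -4. The first Lifr window was 82.4% G and C with 2 GC boxes, and the second was 50.8% G and C with an E-box at positions -30 to -25, which 13.0% of windows held. No window of the 8 receptors with an entry held the forkhead letters (3.17% of windows) or the STAT letters (7.02%). Met had an AP-1 match (6.75% of windows) at positions -54 to -48. A match describes these letters only.

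Marker genes were read beside the receptors, since Pdgfra and Pdgfrb are also markers of other mesenchymal cells. The 5 myoblast markers (Myod1, Myf5, Des, Cdh15 and Chrna1) all exceeded 1 FPKM in every group mean, and 3 of them (Myod1, Cdh15 and Chrna1) were called lower on activation with either hairpin. Their sum was 224 to 309.5 FPKM in quiescent shControl, 182 to 365 in quiescent shFoxM1, 119 to 260.1 in activated shControl and 93.98 to 189 FPKM in activated shFoxM1 libraries. The 7 markers of muscle fibres (among them Myog and Myh3) summed to 245.6 to 1713 FPKM in quiescent shControl and 75.9 to 896 FPKM in quiescent shFoxM1 libraries. The fibre markers summed to 56.9 to 66.4 FPKM in activated shControl and 16.7 to 84.8 FPKM in activated shFoxM1 libraries, and all 7 were called lower on activation with either hairpin. Beside both marker lists, the share of all genes called lower was 16.5% with shControl and 12.3% with shFoxM1. The fall of the receptors thus ran beside a fall of fibre markers and of 3 myoblast markers, whose part in it was not tested.

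Of 6 pericyte markers other than Pdgfrb only Cspg4 reached 1 FPKM in a group mean, and Rgs5, a defining pericyte gene, had group means of at most 0.015 FPKM. Their sum was 6.38 to 9.62 FPKM in quiescent shControl libraries, 6.06 to 8.03 in quiescent shFoxM1, 4.21 to 8.53 in activated shControl and 6.96 to 10.5 in activated shFoxM1 libraries. The 7 markers of fibroblasts and fibro-adipogenic progenitors other than Pdgfra summed to 215 to 226, 228 to 330, 336 to 681 and 277 to 374 FPKM in the same order. Ly6a made up the largest part of these sums, with group means of 131, 204, 427 and 273 FPKM. Dcn had means of 61.7, 52.9, 6.91 and 5.51 FPKM. Of these markers 6 were tested. On activation of shControl cells 3 were called higher (Twist2, Cd34 and Ly6a) and 3 lower (Dcn, Dpt and Lum). With shFoxM1 2 were called higher (Twist2 and Cd34) and the same 3 lower. Among all genes 11.7% were called higher and 16.5% lower with shControl, and 18.3% and 12.3% with shFoxM1. Leukocyte markers summed to 1.07 to 1.67, 1.20 to 3.13, 4.17 to 13.6 and 1.88 to 9.08 FPKM in the same order, nearly all of it Cd68, with Adgre1 listed at 0 in all libraries. Endothelial markers summed to at most 0.32 FPKM, and Schwann cell markers other than Ngfr to at most 0.70 FPKM with Sox10 listed at 0. The part of these markers in the receptor differences was not tested.

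The ligand list held 31 ligands of these receptors or of related ones, of which 20 reached 1 FPKM in a group mean. Among the 20 tested, 2 were called higher and 3 lower on activation of shControl cells, and 5 higher and 3 lower in shFoxM1 cells. Of all genes 11.7% were called higher and 16.5% lower in the first comparison, and 18.3% and 12.3% in the second, shares near those of the ligands. Areg, which encodes the Egfr ligand amphiregulin, rose from 0.507 ± 0.225 to 3.59 ± 1.19 FPKM in shControl cells (log2 difference 1.58, limma adjusted p = 0.00203) and from 0.838 ± 0.420 to 5.35 ± 2.56 FPKM in shFoxM1 cells (1.74, adjusted p = 0.000395). Pdgfc, a Pdgfra ligand, fell from 48.3 ± 8.66 to 10.0 ± 4.18 FPKM (-2.21, adjusted p = 0.000467) and from 46.4 ± 20.0 to 10.1 ± 1.85 FPKM (-2.005, adjusted p = 0.000246). Egfr and one of its ligands thus moved in opposite directions, and Pdgfra and one of its ligands in the same direction.

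Further Egfr ligands rose in shFoxM1 cells, Hbegf (HB-EGF) from 4.12 ± 0.897 to 12.8 ± 8.73 FPKM (1.26, limma adjusted p = 0.0132), Btc (betacellulin) from 0.563 ± 0.157 to 2.095 ± 1.01 FPKM (0.93, adjusted p = 0.00527) and Ereg (epiregulin) from 1.43 ± 0.261 to 5.53 ± 3.59 FPKM (1.27, adjusted p = 0.0166). In shControl cells these 3 were not called, with log2 differences of 0.24, 0.61 and 0.61, and whether the hairpin altered their response was not called either (no gene passed the test of the difference). Fgf2, a ligand of Fgfr1, fell from 4.22 ± 0.775 to 1.27 ± 0.388 FPKM in shControl cells (-1.21, adjusted p = 0.0126). Ctf1 (cardiotrophin 1), which signals through Lifr and Il6st, fell there from 4.22 ± 1.62 to 1.52 ± 0.234 FPKM (-1.01, adjusted p = 0.00813). In shFoxM1 cells Fgf2 and Ctf1 had log2 differences of -0.47 and -0.35 and were not called.

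Other ligands were expressed without a call in either comparison. Hgf, the Met ligand, had group means of 10.1 to 14.3 FPKM, Lif of 1.40 to 2.52 FPKM, Fgf7 of 10.4 to 19.8 FPKM, Pdgfa of 16.4 to 23.3 FPKM, and Clcf1, which acts on the ciliary neurotrophic factor receptor, of 10.4 to 15.7 FPKM. Osm, the gene for oncostatin M, was listed at 0 in all but 1 library, which held 0.06 FPKM, and Pdgfb had group means of 0.44 to 0.883 FPKM. Of the ligand counts, the 2 higher in shControl cells became 1 without any of the 3 quiescent shControl libraries or without activated shControl replicate 2, and the 3 lower became 1 without quiescent shControl replicate 2. In shFoxM1 cells the 3 lower became 1 without quiescent shFoxM1 replicate 3 or activated shFoxM1 replicate 3 or 4.

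**Figure D4:**
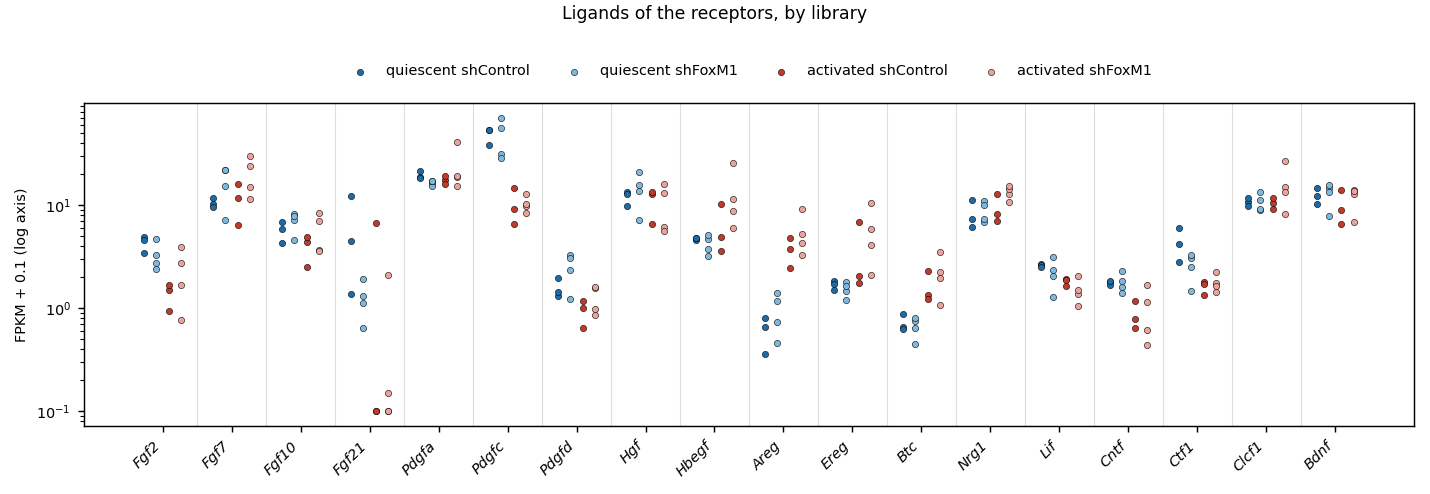
Levels of listed ligands of the receptors or of related ones by library, as FPKM + 0.1 on a log axis, in the 4 groups. Areg lies higher and Pdgfc lower in activated than in quiescent libraries with either hairpin, and Hgf has group means between 10.1 and 14.3 FPKM.

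Of 22 related receptors and co-receptors 8 were tested, of which 6 were called lower on activation with the control hairpin and 4 with shFoxM1, with none higher and median log2 differences of -0.95 and -0.55, where 16.5% and 12.3% of all genes were called lower. Il6ra, the specific subunit for interleukin 6, fell by 1.00 on the log2 scale in shControl cells (limma adjusted p = 0.00244) and by 0.49 in shFoxM1 cells (adjusted p = 0.0382). Il11ra1, the subunit for interleukin 11, fell by 1.01 (adjusted p = 0.0041) and 0.61 (adjusted p = 0.0236), and both of these subunits work with Il6st. Nrp2, a neuropilin co-receptor, fell from 96.2 ± 12.1 to 42.9 ± 11.2 FPKM in shControl cells (adjusted p = 0.00223) and from 106.7 ± 26.6 to 61.5 ± 6.73 FPKM in shFoxM1 cells (adjusted p = 0.0101). Fgfrl1, a fibroblast growth factor receptor without a kinase domain, fell in shControl cells from 16.7 ± 3.95 to 8.59 ± 1.21 FPKM (adjusted p = 0.00612) and had a log2 difference of -0.17 in shFoxM1 cells. The count of 4 in shFoxM1 cells became 1 without quiescent shFoxM1 replicate 1 or activated shFoxM1 replicate 3, and 2 without quiescent shFoxM1 replicate 2 or activated shFoxM1 replicate 1.

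Downstream of the receptors, all 23 adaptors and members of the Ras-ERK relay were tested. In shControl cells 8 were lower and 2 higher on activation, and in shFoxM1 cells 5 were lower and 3 higher. Of all genes 16.5% were lower and 11.7% higher in the first comparison, and 12.3% and 18.3% in the second. Pik3r1, the regulatory subunit of PI3-kinase, fell from 29.5 ± 6.78 to 11.96 ± 2.53 FPKM in shControl cells (log2 difference -1.23, limma adjusted p = 0.00245) and by 1.36 on the log2 scale in shFoxM1 cells (adjusted p = 0.000458). The docking protein Gab1 fell by 0.88 (adjusted p = 0.00532) and 0.61 (adjusted p = 0.015), while the GTPase Hras rose from 41.1 ± 2.49 to 75 ± 13.6 FPKM (0.84, adjusted p = 0.00581) and by 0.89 in shFoxM1 cells (adjusted p = 0.00149). The 8 lower in shControl cells became 4 without quiescent and 5 without activated shControl replicate 2, the 2 higher became 1 without quiescent shControl replicate 3, and the 5 lower in shFoxM1 cells became 3 without activated shFoxM1 replicate 1.

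Genes that ERK induces as feedback, and other inhibitors of receptor tyrosine kinases, were mixed. Of 16 tested among 17 listed, 7 were lower and 1 higher in shControl cells, and 4 were lower and 6 higher in shFoxM1 cells, beside 16.5% lower and 11.7% higher, and 12.3% lower and 18.3% higher, among all genes. Spry1, a Sprouty inhibitor of Ras signalling, fell from 4.55 ± 1.18 to 0.523 ± 0.413 FPKM in shControl cells (log2 difference -1.88, limma adjusted p = 0.000414) and from 3.99 ± 0.830 to 0.64 ± 0.498 FPKM in shFoxM1 cells (-1.64, adjusted p = 0.000285). Il17rd (Sef), which restrains fibroblast growth factor signalling, fell by 1.54 (adjusted p = 0.000132) and 1.26 (adjusted p = 0.000141). Etv4, an ETS factor that ERK induces, rose from 8.76 ± 1.60 to 21.01 ± 6.29 FPKM in shControl cells (1.14, adjusted p = 0.015) and from 8.305 ± 3.18 to 28.5 ± 8.36 FPKM in shFoxM1 cells (1.68, adjusted p = 0.000618). The single higher call in shControl cells, Etv4, was lost when any one of quiescent shControl replicate 2 and activated shControl replicates 1 and 2 was left out.

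On the cytokine side, 18 of 19 listed members of the JAK-STAT relay and its SOCS inhibitors were tested, and activation lowered 6 of them with the control hairpin and 5 with shFoxM1, and raised none, where it lowered 16.5% and 12.3% of all genes. Stat3, the main transcription factor downstream of Il6st, fell from 33.9 ± 2.06 to 18.5 ± 3.74 FPKM in shControl cells (log2 difference -0.86, limma adjusted p = 0.00156) and from 32.5 ± 2.69 to 19.2 ± 1.54 FPKM in shFoxM1 cells (-0.73, adjusted p = 0.00132). Socs3, a feedback inhibitor that binds Il6st, fell by 1.06 (adjusted p = 0.00119) and 0.57 (adjusted p = 0.0134). Socs2, a feedback inhibitor of growth hormone signalling, fell from 31.7 ± 6.29 to 6.55 ± 2.1004 FPKM (adjusted p = 0.000221) and from 24.3 ± 5.14 to 3.25 ± 1.40 FPKM (adjusted p = 1.16e-05). Without activated shFoxM1 replicate 4, 2 members of this list were called higher in shFoxM1 cells.

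The FoxM1 knockdown changed no receptor past the threshold in either state. No gene of the 12432 was called in these comparisons (0.0%), 263 genes (2.12%) had an unadjusted limma p below 0.05 in quiescence and 978 (7.87%) after activation, and 2 of the 8 receptors were among them in each state. The knockdown comparisons use the same libraries as the activation comparisons, so the values of a receptor in them are not independent of each other.

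In quiescent cells the 2 receptors were Egfr and Pdgfra. Egfr was 1.36-fold lower in shFoxM1 than in shControl cells (16.9 ± 1.83 against 12.4 ± 0.365 FPKM; log2 difference -0.41 ± 0.14, 95% interval -0.71 to -0.10). Its groups did not overlap, but limma's adjusted p was 1 and the exact permutation p was 0.0571, the smallest that 4 against 3 libraries allow. Pdgfrb also lay apart, at 114 ± 1.89 against 95.5 ± 5.50 FPKM, with a log2 difference of -0.25 ± 0.29 (limma adjusted p = 1; exact permutation p = 0.0571). This SE is shared over all groups, and the SD of Pdgfrb was 9.19 FPKM in activated shControl and 15.1 FPKM in activated shFoxM1 cells. Of all genes 3.12% did not overlap between the quiescent groups, and 2.45% lay lower in every quiescent shFoxM1 library. Pdgfra had a log2 difference of -0.52 ± 0.24 with overlapping groups (adjusted p = 1), and of -0.36 without quiescent shFoxM1 replicate 4. Lifr had one of -0.02, with a 95% interval of -0.54 to 0.50.

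In activated cells the 2 receptors were Fgfr1 and Il6st. Fgfr1 was at 53.3 ± 14.5 FPKM in shControl and 78.0 ± 19.0 FPKM in shFoxM1 cells, with overlapping groups (log2 difference 0.54 ± 0.20, limma adjusted p = 0.624). Il6st was at 21.1 ± 2.43 and 25.97 ± 1.04 FPKM, and every shFoxM1 library was above every shControl library (0.29 ± 0.14, adjusted p = 0.632; exact permutation p = 0.0571), where 9.4% of all genes did not overlap and 6.68% lay higher in every shFoxM1 library. Met followed with 14.01 ± 2.65 and 19.2 ± 4.10 FPKM (0.42 ± 0.20, adjusted p = 0.632). With equal column sums, which rest mostly on the short RNAs, these 3 values were 1.0033, 0.7391 and 0.8562. The median over all genes moved there from 0.11 to 0.5003. With median-of-ratios scaling the 3 values were 0.41, 0.16 and 0.29 with a median of -0.0027. None of the 3 passed the threshold with any of these scalings, and the Foxm1 groups themselves were apart in this state.

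The difference between the activation responses of shFoxM1 and shControl cells was not called for any receptor, nor for any of the 12432 genes (0.0%), of which 433 (3.48%) had an unadjusted limma p below 0.05. It was 0.70 ± 0.29 for Fgfr1, 0.74 ± 0.34 for Pdgfra and 0.50 ± 0.20 for Egfr on the log2 scale, all with an unadjusted p below 0.05 and an adjusted p of 0.993. For Pdgfrb it was 0.65 ± 0.41, with 0.33 without activated shControl replicate 2 and 1.05 with equal column sums, and for Lifr -0.01 ± 0.34, with a 95% interval of -0.75 to 0.72. Fgfr1 was thus called lower in shControl and not in shFoxM1 cells without the responses being shown to differ. Of the pathway lists, none of the tested members was called for the knockdown in either state or for this difference.

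**Figure D5:**
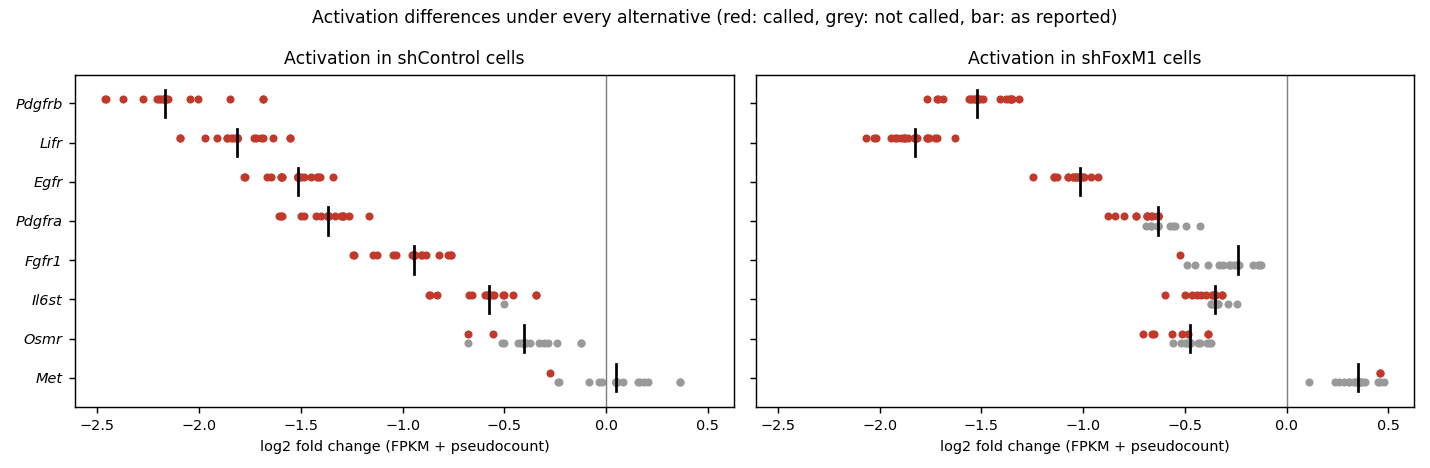
Log2 fold change of the receptors on activation as reported (bar) and under each of the other ways of processing or choosing the libraries (points), in shControl and shFoxM1 cells. Red points were called at a limma adjusted p below 0.05 and grey points were not; Pdgfrb, Lifr and Egfr were called throughout with either hairpin, and Il6st and Pdgfra lost the call in 14 and 13 of 30 alternatives in shFoxM1 cells.

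Genes whose pattern was most like that of a receptor were sought among 11179 protein-coding genes, for the 4 receptors whose group means spanned at least 1 on the log2 scale. The measure was the root mean square difference of centred log2(FPKM + 1) over the 14 libraries. For Lifr, whose own root mean square deviation was 0.957, these were Setbp1 (0.188), Zeb1 (0.190) and Tgfb2 (0.203), and for Pdgfrb (0.983) Jup (0.261), Kcnmb4 (0.278) and Fzd1 (0.294). For Egfr (0.644) they were Ackr4 (0.138), Itm2b (0.1799) and Jph2 (0.188), and for Pdgfra (0.586) Sorcs1 (0.198), Scn7a (0.218) and Rgs17 (0.226). Several of these, such as Ackr4 at 0.02 FPKM in activated shControl cells, had low levels, where the added 1 compresses the differences.

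Genes are annotated on the strand opposite Fgfr1, Pdgfra and Egfr, listed at no more than 0.25 FPKM in any library. The use of strand in counting is not stated, and without it reads of such pairs cannot be told apart.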

How the data were processed

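RNA of 14 C2C12 libraries was sequenced by the authors from Trizol extracts with the Illumina TruSeq RNA kit, per the labels' protocols. The deposited table holds FPKM values made by the authors, 1 column per library with 2 decimals, and its header line gives the titles of the libraries, from which groups were taken. Per the submitters' processing notes Bowtie 0.12.9, Cufflinks 2.1.1, HTSeq and the mm10 build were used, without their roles, while the name of the deposited table gives RSEM with GENCODE genes, so which tool made the FPKM is not settled. The sources used here do not name the GENCODE release, read filters or use of strand. Counts were not used here, so depth was estimated from single-transcript genes with low FPKM, of whose values 93.7 to 96.1% lay within 0.25 of a whole-read step in each library. These are estimates of counting depth only.

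Tests used log2(FPKM + 1). Genes had to reach 1 FPKM in 3 or more libraries, which left 12432, fitted together in 1 limma model (limma 3.58.1, R 4.3.3) of 4 group means with a trended variance, and p-values were adjusted by Benjamini-Hochberg over all of them. The comparisons were activated against quiescent cells with each hairpin, shFoxM1 against shControl in each state, and the difference of the activation responses. Exact permutation tests on mean log2 values used scipy 1.17.1. The fit was tested on simulated data. Positions came from GENCODE release M21 on GRCm38, which matched 49326 of 49585 genes, and upstream sequences from RefSeq on GRCm38.p6.

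All 10 receptors are named in each comparison. Of the 5 pathway lists, up to 4 called members with the smallest p in a comparison could be named, and ligands with a group mean of at least 1 FPKM; Spry3 had no match. Some ligands counted in the ligand list are not reported here by name. Called Etv4 in shControl cells was named after its value was seen. The members and lists were chosen with earlier results of these data known. Alternatives were other pseudocounts (0.1, 0.5), filters, scalings, variance models, weights on the libraries, subsets of libraries, the replicate number as a block, removal of a GC and length trend (mgcv 1.9.3), and leaving out each library.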

Additional observations from a re-analysis of the deposited data

Results flagged for a closer look

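Pdgfra in activated shFoxM1 replicate 4 lay far below the other libraries of its group, at 2.53 FPKM against 4.02 to 4.32 FPKM. The gap made up 0.832 of the range of the group. Of 20 groups of 4 libraries checked this was the only one to stand out, and chance alone flags about 1 in 20.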

How the results depend on the processing

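Over 40 receptor results, 1192 alternatives left 1096 with the same direction and call, 28 without the call, 20 with a new call and 48 with the other sign. Part of this was fixed beforehand, so the tally does not measure stability. Leaving out a library of a group not compared cannot move the log2 value. For the knockdown and the difference of responses no receptor was called to begin with, so no call could be lost. The number of receptors called on activation of shControl cells was 6, with 5 to 6 without a library and 6 to 8 otherwise. On activation of shFoxM1 cells it was 5, with 3 under equal column sums, 3 with only the groups compared, up to 7 with weights or the GC and length trend removed, and 3 to 6 without a library. For the knockdown it was 0, but weights on the libraries, whose estimate stopped before it converged, gave 1 in quiescent cells, 3 in activated cells and 3 for the difference of responses, and called 9544 genes of 12432 on activation of shControl cells and 2564, 4896 and 2663 genes for the knockdown in quiescent cells, in activated cells and the difference. All genes called there were 3515, and 1896 or 2196 without quiescent or activated shControl replicate 2; in shFoxM1 cells they were 3814, and 7273 with the weights. The knockdown in quiescent cells called 4 genes with no filter, 19 without quiescent shControl replicate 1 and 2 without replicate 2, and that in activated cells 1 with no filter.

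The log2 values with the other sign were as follows, and of them Met with weights was called. Met on activation of shControl cells was -0.24 with equal column sums, -0.23 with the protein-coding sum and -0.28 with weights (-0.0862 to 0.2066 without a library). For the knockdown in quiescent cells Lifr was 0.0265 with equal column sums, 0.048 with the protein-coding sum, 0.0105 with median-of-ratios scaling, 0.2517 with weights, 0.0179 with quantile normalization, 0.1863 with shFoxM1 replicates 1 to 3, 0.0019 without the GC and length trend, 0.0892 with the replicate block and 0.064 with block and trend removal (-0.2133 to 0.1863 without a library). Osmr was 0.0244 with shFoxM1 replicates 1 to 3 (-0.2499 to 0.0244 without a library), Met -0.0182 to 0.2232 and Il6st -0.0285 to 0.1447 without a library. In activated cells Osmr was 0.1914 and Lifr 0.3901 with equal column sums, and Lifr 0.0762 with the protein-coding sum and 0.0772 with the replicate block (-0.1117 to 0.0776 without a library). Egfr there was -0.0245 with median-of-ratios scaling, -0.1872 with weights, -0.0371 with quantile normalization and -0.002 with the block and trend together (-0.0043 to 0.2258 without a library). For the difference of responses Osmr was 0.3015 and Lifr 0.3636 with equal column sums and Lifr 0.0282 with the protein-coding sum (-0.2511 to 0.0329 and -0.2158 to 0.1837 without a library). The cause was not tested.

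Equal column sums moved the median log2 difference of all genes from -0.11 to -0.37 on activation of shControl cells, and the protein-coding sum moved it to -0.36. Of the genes called there 41.5% were higher, against 11.4% and 14.6% with these scalings and 54.5% with median-of-ratios scaling; in shFoxM1 cells it was 59.8%, against 68.7%, 29.1% and 53.0%. List counts moved too. Of the adaptors and relay 8 were lower in shControl cells, 17 with weights and 14 with the protein-coding sum, and of the JAK-STAT list 6, against 16 and 13; of the related receptors 4 were lower in shFoxM1 cells and 0 with equal column sums. Same-numbered libraries had correlations of -0.2054 to 0.1323 on activation of shControl cells, 0.0888 to 0.381 in shFoxM1 cells, 0.0012 to 0.2936 for the knockdown in quiescent and -0.1905 to 0.2075 in activated cells. Not every pair was over 0.1, so the numbers were not taken to pair the libraries, although 7 of 8 shFoxM1 libraries correlated best with their own number in the other state, a hint from the data and not the design. Libraries of unlike number correlated more strongly between the hairpins. In activated cells shFoxM1 replicate 4 was at 0.6658 with shControl replicate 3 and at -0.6835 with replicate 2, and in quiescent cells at 0.3349 with replicate 3. A block on the replicate number does not take up such likeness, so dependence between libraries was not excluded. With the replicate block 4 receptors were called in shFoxM1 cells, since Il6st had an adjusted p of 0.0571, and 3983 genes in shControl and 4167 in shFoxM1 cells. Depth limits Ngfr, with at most an estimated 54.3 reads.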
